A study of Homo sapiens with 6 samples.

Results

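Receptor tyrosine kinases sit in the plasma membrane, bind a growth factor or a matrix protein on the outside and phosphorylate tyrosines on the inside. The phosphorylated tyrosines recruit adaptor proteins, which start the RAS-ERK cascade and the PI3K-AKT pathway, and the cell then limits the signal through phosphatases, feedback inhibitors and sorting of the receptor to the lysosome. Several of these receptors are mutated, amplified or overexpressed in lung adenocarcinoma, where EGFR and MET are drug targets. The RNA helicase DDX17 has been tied to resistance against EGFR inhibitors, so the question addressed here was how the mRNAs of these receptors differed after its knockdown.

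The receptors EGFR, ERBB2, ERBB3, MET, FGFR1, IGF1R, INSR, EPHA2, DDR1 and RET were taken by symbol from the table of reads per gene. All 10 were among its 29476 genes, and 9 were among the 15615 genes with enough reads to be tested, the exception being RET. The RNA-seq was done in A549, an established human lung adenocarcinoma line. The 3 siCtrl libraries came from cells transfected with a nontargeting siRNA and the 3 siDDX17 libraries from cells transfected with an siRNA against DDX17, with no other treatment in either group. A single siRNA against DDX17 was used, so an effect of that siRNA and an effect of the lower DDX17 level cannot be told apart. The characteristics of the siCtrl samples name a control plasmid, whereas the titles and the methods describe siRNA. The replicates are described as biological. The p-values below weigh the difference between the groups against the spread between these 3 cultures in each group, which the tests partly share across genes.

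The libraries held between 30658136 and 39182371 reads in genes. DDX17, the targeted gene, had 5988, 5273 and 7706 reads in the siCtrl libraries and 1237, 1123 and 1172 in the siDDX17 libraries, a fall by 2.60 on the log2 scale (SE 0.0685). The siCtrl 1 library stood apart from its group. Its median chi-square per gene was 2.16 against siCtrl 2 and 2.47 against siCtrl 3, compared with 1.11 between siCtrl 2 and siCtrl 3. Several results that rest on siCtrl 1 are given with and without it, but not all. Values per library are given as CPM, the reads of a gene scaled to a common library size with TMM. The epithelial markers KRT8, KRT18, KRT19, EPCAM and CDH1 summed to between 5534 and 6096 CPM in siCtrl and between 4834 and 5266 in siDDX17, with 1 higher and 3 lower in siDDX17 at an adjusted p under 0.05. The measured markers of alveolar type II cells summed to at most 2.05 CPM, those of endothelial cells to at most 0.413 and those of fibroblasts to at most 3.98. The immune markers summed to between 22.3 and 30.0 CPM in siCtrl and between 30.4 and 30.9 in siDDX17, nearly all from CD14 and CD68, while PTPRC, which marks leukocytes, had 0 to 2 reads per library. The part of the lower epithelial marker sum in the receptor results was not tested.

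In the DDX17 knockdown group, 5 of the 9 tested receptors rose (ERBB3, IGF1R, FGFR1, DDR1 and EGFR), 2 fell (EPHA2 and MET) and 2 did not pass the test (ERBB2 and INSR). Across all tested genes, 24.5% rose and 24.3% fell by the same rule, an adjusted p under 0.05 in the quasi-likelihood test of edgeR with Benjamini-Hochberg adjustment over all tested genes. None of the 9 receptors differed by more than 2-fold, which 7.57% of all tested genes did at an adjusted p under 0.05. By the limits stated in the methods of the study, an unadjusted p under 0.01 and a fold change over 1.5, 3 receptors were called (ERBB3, IGF1R and EPHA2), beside 19% of all tested genes. These calls come from the fit used here and are not the study's own list of differing genes. The values of the groups did not overlap for 7 of the 9 receptors, beside 56.5% of all tested genes. The median log2 fold change was 0.27 over the 9 receptors and 0.01 over all tested genes.

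Sequence from just before the start site is shown for both receptors that fell and for EGFR and IGF1R, receptors that rose, to set the starts of genes that moved in opposite directions side by side. The sequences are from RefSeq on GRCh38.p14 and end at the base before the start site. They read 5′ to 3′ on the strand of the gene. Of the 10 receptors, 8 were searched, as ERBB3 had no entry and FGFR1 was left out of the search. Capitals mark exact matches on either strand to the cAMP response element TGACGTCA or to the GC box GGGCGG, the letters bound by SP1.
EPHA2, chr1:16156070-16156169, minus strand: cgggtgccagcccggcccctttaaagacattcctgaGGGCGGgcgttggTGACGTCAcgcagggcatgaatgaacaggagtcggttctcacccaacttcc
MET, chr7:116672096-116672195, plus strand: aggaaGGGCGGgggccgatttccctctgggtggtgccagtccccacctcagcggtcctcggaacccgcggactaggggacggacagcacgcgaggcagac
EGFR, chr7:55018917-55019016, plus strand: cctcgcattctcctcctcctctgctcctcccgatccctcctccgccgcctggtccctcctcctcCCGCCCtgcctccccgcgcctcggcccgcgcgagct
IGF1R, chr15:98648439-98648538, plus strand: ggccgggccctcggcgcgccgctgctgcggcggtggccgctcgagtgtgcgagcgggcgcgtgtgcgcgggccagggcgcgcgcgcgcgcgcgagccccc

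EPHA2 held 1 cAMP response element in these letters, and EPHA2, MET and EGFR held 1 GC box each. In the 250 bases before the start site, the cAMP response element was present in 1.65% of 35116 RefSeq windows and the GC box in 42.6%. Over those 250 bases, EGFR, MET and IGF1R held 2 GC boxes each and EPHA2 held 1. None of these receptors held the TATA box TATAAA, which was in 10.7% of all windows. A GC box was thus present upstream of receptors that rose and of receptors that fell.

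The receptors differed widely in level before the knockdown. As FPKM, which is scaled to gene length and so can be set side by side between genes, EPHA2 had the highest level in siCtrl at 39.3 ± 7.42 (SD, n = 3). MET followed at 24.3 ± 2.59, FGFR1 at 14.75 ± 0.377 and DDR1 at 12.9 ± 0.725. ERBB2 was at 7.91 ± 0.275, IGF1R at 5.01 ± 0.308 and EGFR at 3.97 ± 0.487. ERBB3 was at 1.07 ± 0.130 and INSR at 0.657 ± 0.0603, and RET was listed at 0.01 or less in every library. No neighbours in this order overlapped in siCtrl, although the lowest IGF1R library (4.77) lay just above the highest EGFR library (4.53). When reads were instead divided by the length of all annotated exons, FGFR1 and DDR1 changed places, so their order depends on the gene length used.

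By the deposited FPKM, the order was not the same in siDDX17. The place of FGFR1 in this order depended on the gene length used. All annotated exons span 17201 bases for FGFR1, 7224 for MET and 9122 for DDR1. Their siDDX17 means were 144, 133 and 96.4 CPM, so per kb of exons FGFR1 lay below both MET and DDR1. By that length, MET was at 24.5 and FGFR1 at 6.11 CPM per kb in siCtrl, further apart than as FPKM. By FPKM in siDDX17, FGFR1 stood at 22.05 ± 0.646 and MET at 19.9 ± 1.55, so that FGFR1 was listed above MET. The lowest library of FGFR1 was at 21.32 and the highest library of MET at 21.18. MET overlapped with DDR1, which was at 18.1 ± 0.445. IGF1R, at 9.35 ± 0.176, overlapped with ERBB2, at 9.13 ± 0.471. All annotated exons span 13941 bases for IGF1R and 10321 for ERBB2. With siDDX17 means of 110 and 51.7 CPM, IGF1R lay above ERBB2 by that length. EPHA2 was still listed first at 24.9 ± 1.20 FPKM, but the gap to the next receptor had narrowed from 33.6 against 27.27 FPKM between the nearest libraries in siCtrl to 23.69 against 22.55 in siDDX17.

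**Figure D1:**
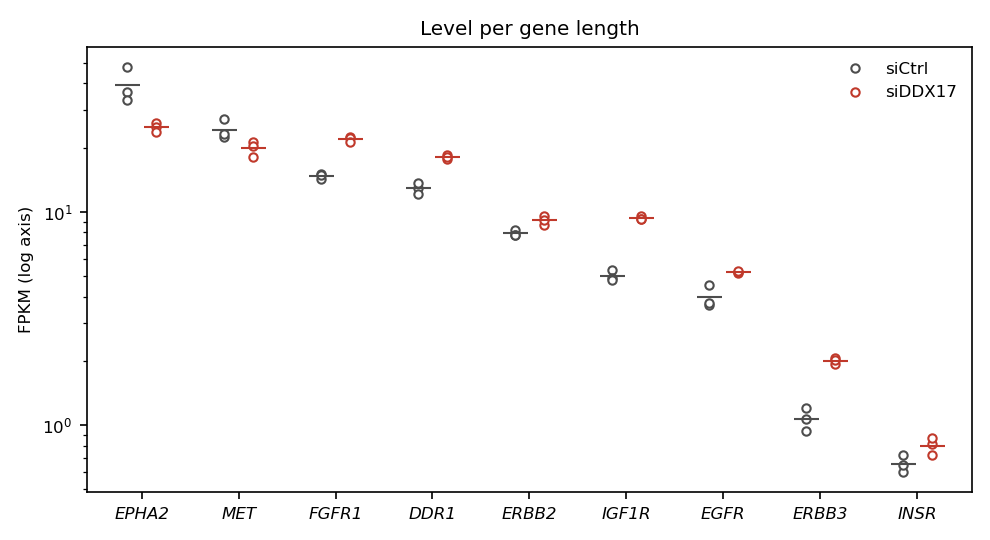
FPKM (log axis) of 9 receptors in the 3 siCtrl (grey) and 3 siDDX17 (red) libraries, ordered by the siCtrl mean, with a circle for each library and a line for each mean. EPHA2 and MET are the receptors whose red circles lie below the grey ones. IGF1R moves from 5.01 to 9.35 FPKM, near ERBB2 on this scale, which has no TMM scaling. Per kb of all annotated exons, IGF1R (4.63 CPM) and ERBB2 (4.74 CPM) were already close in siCtrl, and IGF1R lay above ERBB2 in siDDX17.

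The ERBB family was represented by EGFR, ERBB2 and ERBB3. EGFR (chromosome 7, 55019017 to 55211628, plus strand, GENCODE release 44 on GRCh38), the receptor of EGF and amphiregulin, had 57.1, 48.1 and 47.9 CPM in siCtrl 1, 2 and 3 against 60.6, 62.1 and 61.5 in siDDX17 1, 2 and 3. Every siDDX17 library lay above every siCtrl library, and siCtrl 1 lay nearer to the knockdown libraries than to its own group. EGFR rose by 20.3% (log2 fold change 0.27, SE 0.0703, 95% interval 0.12 to 0.42, adjusted p = 0.00658 in the edgeR quasi-likelihood test). Of all tested genes, 53.3% had a larger absolute log2 fold change than EGFR. Without siCtrl 1 the log2 fold change of EGFR was 0.34.

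ERBB3 (chromosome 12, 56076799 to 56103505, plus strand), a neuregulin receptor whose own kinase is nearly inactive and which signals to PI3K as a partner of EGFR or ERBB2, was the ERBB member with the largest difference. It had 8.51, 10.00 and 7.58 CPM in siCtrl against 14.3, 15.4 and 14.7 in siDDX17, from 858 reads in all in siCtrl and 1680 in siDDX17. The groups were well apart. ERBB3 rose by 71.1% (log2 fold change 0.77, SE 0.101, 95% interval 0.56 to 0.99, edgeR adjusted p = 3.39e-05). Another protein-coding gene overlaps its span on the same strand, with 2155 to 2723 reads in siCtrl and 2225 to 2521 in siDDX17. Of the 5566 50-base stretches in the canonical ERBB3 transcript, 0 occurred in the transcript of another gene. How reads in the overlap were assigned is not given in the sources used here.

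ERBB2 (chromosome 17, 39687914 to 39730426, plus strand), the ERBB receptor without a known ligand, had 49.8, 49.2 and 47.8 CPM in siCtrl against 48.8, 54.9 and 51.3 in siDDX17. The groups overlapped. Its log2 fold change was 0.08 (SE 0.0608, 95% interval -0.05 to 0.21, edgeR adjusted p = 0.307), which spans -3.58% to 15.6%. Scaling by library size alone, which moved the median log2 fold change of all tested genes to 0.13, gave ERBB2 0.20 with an adjusted p of 0.0169 in the same edgeR test. ERBB4, the remaining family member, had 0 to 3 reads per library and was not tested.

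IGF1R and INSR are paralogs that bind insulin-like growth factors and insulin and recruit the IRS proteins. IGF1R (chromosome 15, 98648539 to 98964530, plus strand) had 67.6, 64.7 and 61.4 CPM in siCtrl against 113, 111 and 107 in siDDX17. The spread within each group was small beside the gap between the groups. IGF1R rose by 70.8% (log2 fold change 0.77, SE 0.0574, 95% interval 0.65 to 0.90, edgeR adjusted p = 2.12e-07), the smallest adjusted p of the 9 receptors. Of all tested genes, 13.9% had a larger absolute log2 fold change.

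INSR (chromosome 19, 7112255 to 7294414, minus strand) had 5.85, 7.34 and 6.43 CPM in siCtrl against 6.56, 7.41 and 7.81 in siDDX17. The groups overlapped. Its log2 fold change was 0.15 (SE 0.115, 95% interval -0.09 to 0.40, edgeR adjusted p = 0.289), which spans -6.33% to 32.3%. INSR had 649 reads in all in siCtrl, against 6441 for IGF1R. Without siCtrl 1 the log2 fold change of INSR was 0.07.

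FGFR1, a receptor of fibroblast growth factors that signals through the adaptor FRS2, lies on chromosome 8 from 38400215 to 38468834 on the minus strand. It had 105, 104 and 106 CPM in siCtrl against 147, 147 and 137 in siDDX17, with no overlap. FGFR1 rose by 36.7% (log2 fold change 0.45, SE 0.0543, 95% interval 0.33 to 0.57, edgeR adjusted p = 1.61e-05). LETM2, which overlaps it on the opposite strand, had 427 to 547 reads in siCtrl and 193 to 220 in siDDX17.

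DDR1, a receptor tyrosine kinase that binds collagen, lies on chromosome 6 from 30876421 to 30900156 on the plus strand. It had 73.5, 72.3 and 79.0 CPM in siCtrl against 93.8, 99.7 and 95.7 in siDDX17, with no overlap. DDR1 rose by 28.6% (log2 fold change 0.36, SE 0.0576, 95% interval 0.24 to 0.49, edgeR adjusted p = 0.000172).

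MET, the receptor of hepatocyte growth factor, lies on chromosome 7 from 116672196 to 116798377 on the plus strand. It had 195, 168 and 169 CPM in siCtrl against 141, 123 and 134 in siDDX17. The groups did not overlap, and siCtrl 1 was the highest library. MET fell by 25.2% (log2 fold change -0.42, SE 0.0720, 95% interval -0.57 to -0.26, edgeR adjusted p = 0.000328). Without siCtrl 1 its log2 fold change was -0.36, with an adjusted p of 4.46e-07 in the same test, and with limma on log2(FPKM + 1) it was -0.28 (adjusted p = 0.0243).

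EPHA2, a receptor of ephrin-A ligands on neighbouring cells and itself a transcript induced by ERK signalling, lies on chromosome 1 from 16124337 to 16156069 on the minus strand. It had 202, 162 and 145 CPM in siCtrl against 103, 99.96 and 92.7 in siDDX17. The groups did not overlap, and the siCtrl libraries were more spread (SD 29.1) than the siDDX17 libraries (SD 5.36). EPHA2 fell by 41.9% (log2 fold change -0.78, SE 0.0972, 95% interval -0.99 to -0.57, edgeR adjusted p = 2.13e-05). Without siCtrl 1 its log2 fold change was -0.65. With all libraries 13.5% of all tested genes had a larger absolute log2 fold change than EPHA2. Its absolute difference was near those of ERBB3 and IGF1R, and without siCtrl 1 it was smaller than both, at -0.65 against 0.76 for ERBB3 and 0.80 for IGF1R.

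RET, the receptor of the GDNF family, lies on chromosome 10 from 43077064 to 43130351 on the plus strand. It had 0, 3 and 1 reads in siCtrl and 2, 1 and 1 reads in siDDX17. All libraries were at or under a count of 3, so no fold change is given and a difference was not detectable at this depth.

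**Figure D2:**
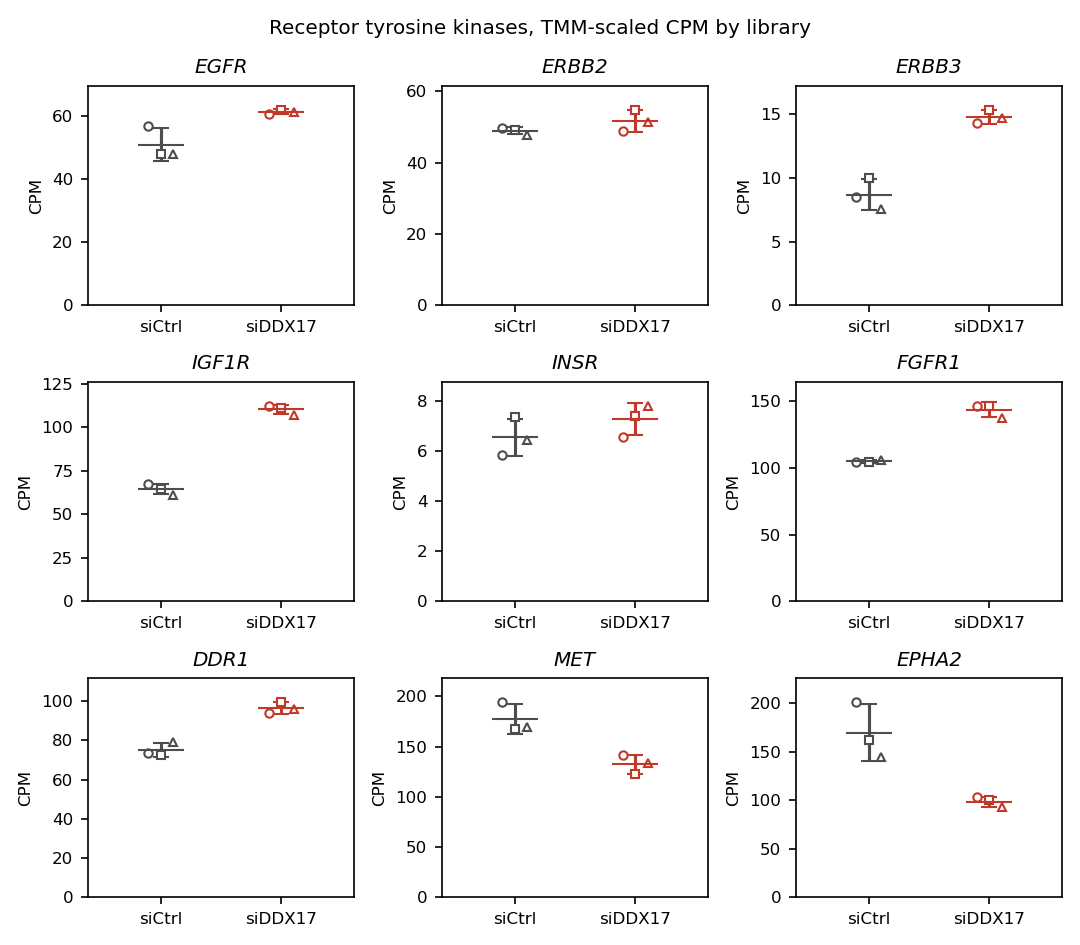
CPM by library for the 9 tested receptors in siCtrl (grey) and siDDX17 (red), with a circle, square and triangle for replicates 1, 2 and 3, a line for the mean and bars for the SD (n = 3), on axes that start at 0. The groups overlap for ERBB2 and INSR and are apart for the other 7 receptors, with MET and EPHA2 lower in siDDX17.

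**Figure D3:**
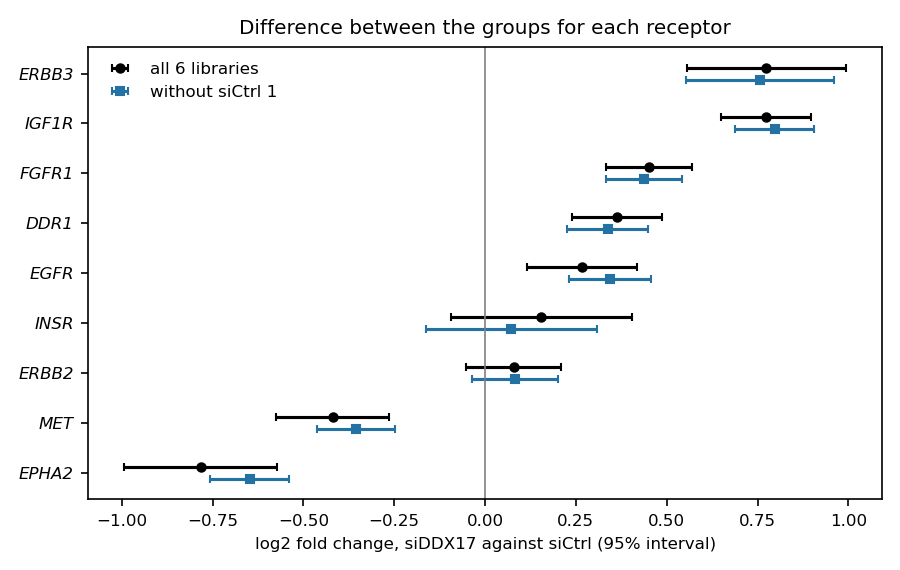
Log2 fold change of siDDX17 against siCtrl for the 9 tested receptors with its 95% interval, from all 6 libraries (black) and without siCtrl 1 (blue). The intervals of ERBB2 and INSR include 0 in both fits, and leaving out siCtrl 1 moves EPHA2 from -0.78 to -0.65.

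Of the remaining human receptor tyrosine kinases, 24 of 48 listed were tested, of which 11 (45.8%) rose, 3 (12.5%) fell and 10 did not pass the test, beside the 24.5% and 24.3% of all genes given above. Their median log2 fold change was 0.26. NTRK3, a neurotrophin receptor, had the largest rise among those whose average was 3 log2 CPM or more. It had 15.1, 13.98 and 10.3 CPM in siCtrl against 36.9, 36.5 and 35.6 in siDDX17 (log2 fold change 1.47, SE 0.111, edgeR adjusted p = 2.36e-07). LMTK3 rose by 1.25 and ROR1, a WNT5A receptor, by 1.09 on the log2 scale. The receptors that fell were MERTK (-0.91), EPHB3 (-0.76) and PTK7 (-0.71), each with an average under 3 log2 CPM and named after their values were seen.

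The other FGF receptors were also named after their values were seen. FGFR3 had 0.856, 1.05 and 0.721 CPM in siCtrl against 6.12, 8.72 and 6.77 in siDDX17, from 27 to 30 reads per library in siCtrl and 236 to 318 in siDDX17. It rose by 3.05 on the log2 scale (SE 0.191, edgeR adjusted p = 4.58e-08). FGFR2 rose by 1.37, from 21 to 37 reads in siCtrl to 76 to 78 in siDDX17. FGFR4 had 28.5, 31.9 and 32.6 CPM in siCtrl against 52.6, 62.6 and 56.4 in siDDX17 and rose by 0.88. FGFR1 thus rose along with FGFR2, FGFR3 and FGFR4, and these 4 genes kept their direction and their call under every scaling tried, with limma on FPKM and with each library left out. The size depended on the setting for FGFR2 and FGFR3, which were at 0.24 and 1.15 with limma on log2(FPKM + 1), a scale that understates the change of low genes. FRS2, the adaptor of these receptors, fell by 0.52 (SE 0.106, edgeR adjusted p = 0.00115).

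Among the ligands of the ERBB family and the proteins that release them, 13 of 15 listed genes were tested, of which 3 rose, 3 fell and 7 did not pass the test. These shares, 23.1% in each direction, were near those of all tested genes (24.5% and 24.3%). EREG (epiregulin) had 99.4, 48.6 and 37.3 CPM in siCtrl against 28.9, 29.4 and 32.6 in siDDX17. It fell by 1.03 on the log2 scale (SE 0.253, edgeR adjusted p = 0.00430), and by 0.51 without siCtrl 1, so that library set much of the size of the difference. It did not pass the test with limma on log2(FPKM + 1) (adjusted p = 0.0770) or on log2(FPKM + 0.1) (adjusted p = 0.0675).

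Outside the rule for named genes and chosen after their values were seen, HBEGF had 7.77, 5.94 and 6.73 CPM in siCtrl against 3.37, 3.24 and 1.95 in siDDX17, and TGFA had 5.17, 3.36 and 3.82 CPM in siCtrl against 7.32, 6.83 and 8.07 in siDDX17. HBEGF fell by 1.26 and TGFA rose by 0.84, both ligands of EGFR. AREG, with 47.1, 26.4 and 21.3 CPM in siCtrl against 23.5 to 24.1 in siDDX17, did not pass the test (adjusted p = 0.116), and its log2 fold change was -0.41 with all libraries and -0.005 without siCtrl 1. Of the proteins that release ligands, RHBDF2, a partner of the protease ADAM17, rose by 0.45 and the protease ADAM10 by 0.33. ADAM17 itself fell by 0.28, which did not pass the test when scaled by library size alone (-0.15, edgeR adjusted p = 0.0871). It also did not pass with limma on log2(FPKM + 1) (adjusted p = 0.130) or on log2(FPKM + 0.1) (adjusted p = 0.127).

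Of 25 ligands and RET co-receptors for the other receptors, 12 were tested, with 2 higher (16.7%), 1 lower (8.3%) and 9 that did not pass the test, beside 24.5% and 24.3% of all tested genes. EFNA1, a ligand of EPHA2, had 11.2, 10.3 and 10.5 CPM in siCtrl against 14.4, 14.4 and 14.5 in siDDX17 and rose by 0.44 (SE 0.0788, edgeR adjusted p = 0.000478), whereas EPHA2 fell. HGF, the ligand of MET, had 14 to 37 reads in siCtrl and 25 to 43 in siDDX17 and did not pass the test. INS and the co-receptor GFRA4 were not analysed here.

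**Figure D4:**
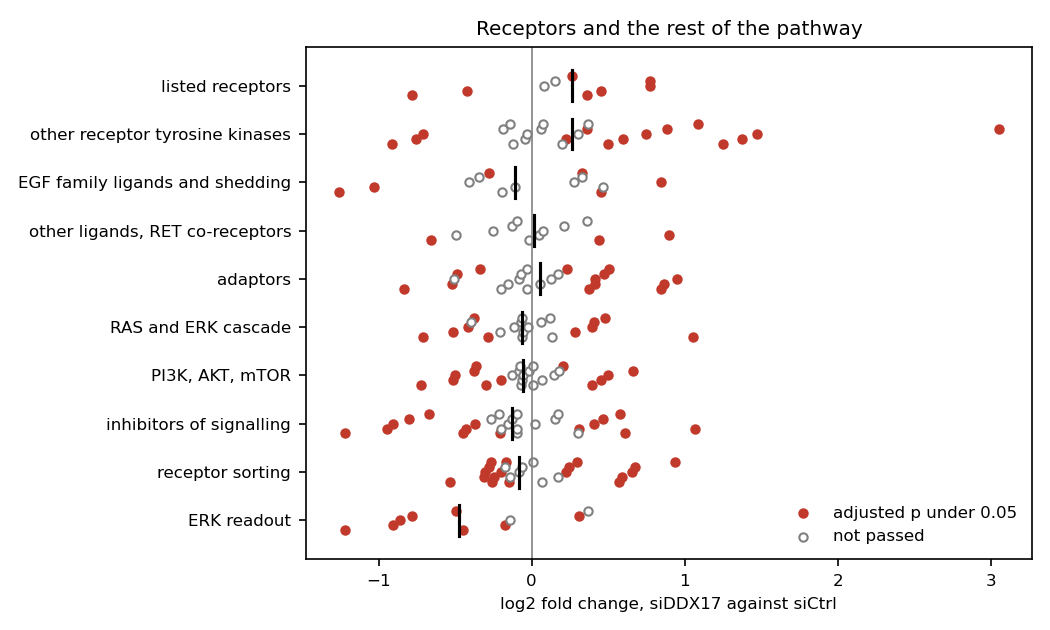
Log2 fold change of siDDX17 against siCtrl for each tested gene of the listed receptors and of 9 further lists, with a filled circle at an adjusted p under 0.05, an open circle otherwise, and a black line at the median of each list. The listed receptors (median 0.27) and the other receptor tyrosine kinases (median 0.26) lie mostly to the right of 0, and the ERK readout (median -0.47) mostly to the left.

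Of 23 tested adaptors, 9 (39.1%) rose, 4 (17.4%) fell and 10 did not pass the test, with a median log2 fold change of 0.06, beside 24.5% and 24.3% of all tested genes. PTPN11, which encodes the phosphatase SHP2 that relays receptor signals to RAS, had 35.4, 32.9 and 30.3 CPM in siCtrl against 61.4, 57.5 and 60.8 in siDDX17 (log2 fold change 0.87, SE 0.0673, edgeR adjusted p = 3.09e-07). SH2B1 rose by 0.95 and NCK2 by 0.85. IRS2, an adaptor of IGF1R and INSR, had 42.1, 42.2 and 41.0 CPM in siCtrl against 23.1, 23.1 and 24.2 in siDDX17 and fell by 0.83 (SE 0.0617, edgeR adjusted p = 2.12e-07). IRS1, the other tested IRS protein, named after its values were seen, rose by 0.23 (SE 0.0667, edgeR adjusted p = 0.0103). GRB2, which links most of these receptors to RAS, fell by 0.49.

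Of 21 tested genes of the RAS-ERK cascade, 5 rose, 5 fell and 11 did not pass the test, with a median of -0.06. The share called, 23.8% in each direction, was that of all tested genes within 1 percentage point (24.5% and 24.3%). MRAS rose by 1.05, RRAS by 0.48 and the phosphatase subunit PPP1CB by 0.39. MAP2K1, the kinase MEK1, had 91.2, 92.3 and 91.1 CPM in siCtrl against 55.1, 56.0 and 56.9 in siDDX17 and fell by 0.71 (SE 0.0524, edgeR adjusted p = 2.03e-07). The kinase ARAF fell by 0.51 and LAMTOR3, a scaffold of MEK1, by 0.42.

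Of 24 tested genes of the PI3K-AKT pathway, 5 (20.8%) rose, 7 (29.2%) fell and 12 did not pass the test, with a median of -0.06, near the 24.5% and 24.3% of all tested genes. The kinase AKT1 had 65.5, 68.2 and 70.00 CPM in siCtrl against 106, 112 and 105 in siDDX17 and rose by 0.66 (SE 0.0561, edgeR adjusted p = 6.49e-07). MAPKAP1, a subunit of mTORC2, rose by 0.20. PIK3CB, a catalytic subunit of PI3K, fell by 0.51 and RICTOR, another subunit of mTORC2, by 0.37. Scaled by library size alone, RICTOR was at -0.25 and did not pass the test (edgeR adjusted p = 0.0738). With limma, RICTOR did not pass on log2(FPKM + 1) (adjusted p = 0.168) or on log2(FPKM + 0.1) (adjusted p = 0.163). MAPKAP1 did not pass the edgeR test without siDDX17 1 (adjusted p = 0.0558) or without siDDX17 3 (adjusted p = 0.0645).

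Of 27 tested inhibitors of receptor signalling, 6 (22.2%) rose, 9 (33.3%) fell and 12 did not pass the test, with a median of -0.13, beside 24.5% and 24.3% of all tested genes. The inhibitors that fell furthest were DUSP6, ERRFI1 and SPRY4. DUSP6, a phosphatase of ERK, had 52.8, 44.4 and 40.7 CPM in siCtrl against 19.8, 19.0 and 20.2 in siDDX17 and fell by 1.22 (SE 0.0891, edgeR adjusted p = 1.81e-07). ERRFI1, which encodes the EGFR inhibitor MIG6, had 446, 325 and 313 CPM in siCtrl against 193, 188 and 182 in siDDX17 and fell by 0.95 (SE 0.106, edgeR adjusted p = 8.26e-06). With each library left out in turn, its log2 fold change ranged from -1.04 to -0.78. SPRY4 fell by 0.91. The inhibitors that rose furthest were receptor-like and other tyrosine phosphatases, with PTPRJ at 1.07, PTPN9 at 0.61 and PTPRK at 0.58.

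Of 25 tested genes of receptor sorting, 8 (32%) rose, 10 (40%) fell and 7 did not pass the test, with a median of -0.08, beside 24.5% and 24.3% of all tested genes. CBL, the ubiquitin ligase that marks EGFR and MET for degradation, had 11.2, 8.84 and 10.6 CPM in siCtrl against 7.34, 7.02 and 6.88 in siDDX17 and fell by 0.53 (SE 0.105, edgeR adjusted p = 0.000904). With limma, CBL was at -0.16 on log2(FPKM + 1) (adjusted p = 0.0424) and did not pass the test on log2(FPKM + 0.1) (-0.34, adjusted p = 0.0578). Its paralog CBLB, named after its values were seen, rose by 0.59 (SE 0.134, edgeR adjusted p = 0.00253). RAB5B, an early endosome GTPase, fell by 0.31 and STAM, an endosomal sorting subunit, by 0.30. STAM was at -0.18 without siCtrl 1 and did not pass the test when scaled by library size alone (edgeR adjusted p = 0.181), without siDDX17 2 (adjusted p = 0.0692) or without siDDX17 3 (adjusted p = 0.0568). With limma, STAM did not pass on log2(FPKM + 1) (adjusted p = 0.256) or on log2(FPKM + 0.1) (adjusted p = 0.248). EPN1, an endocytic adaptor, rose by 0.94, the chaperone HSP90AA1 by 0.68 and the ubiquitin ligase NEDD4L by 0.66. The number of sorting genes that fell was 4 rather than 10 when the libraries were scaled by size alone.

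The ERK readout is a list of 10 transcripts known to rise with ERK activity, and EPHA2 is both a member of it and 1 of the receptors above. Of its 10 tested genes, 1 rose, 7 fell and 2 did not pass the test, beside 24.5% and 24.3% of all tested genes, with a median of -0.47 against 0.01 for all tested genes. DUSP6, SPRY4, DUSP4 and SPRY2 are also among the inhibitors above. CCND1, the cyclin D1 that growth factors induce, had 655, 662 and 682 CPM in siCtrl against 367, 363 and 371 in siDDX17 and fell by 0.86 (SE 0.0527, edgeR adjusted p = 3.93e-08). SPRY2 rose by 0.31, a call that was lost without siCtrl 2 (adjusted p = 0.0791), siCtrl 3 (0.0677), siDDX17 2 (0.0790) or siDDX17 3 (0.0622) in the same edgeR test. ETV5, chosen after its values were seen, had 66.8, 50.8 and 53.9 CPM in siCtrl against 41.6, 40.4 and 40.1 in siDDX17 and fell by 0.49. With each library left out in turn, its log2 fold change ranged from -0.58 to -0.38. Phosphorylation of the receptors and of ERK was not measured in these libraries.

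**Figure D5:**
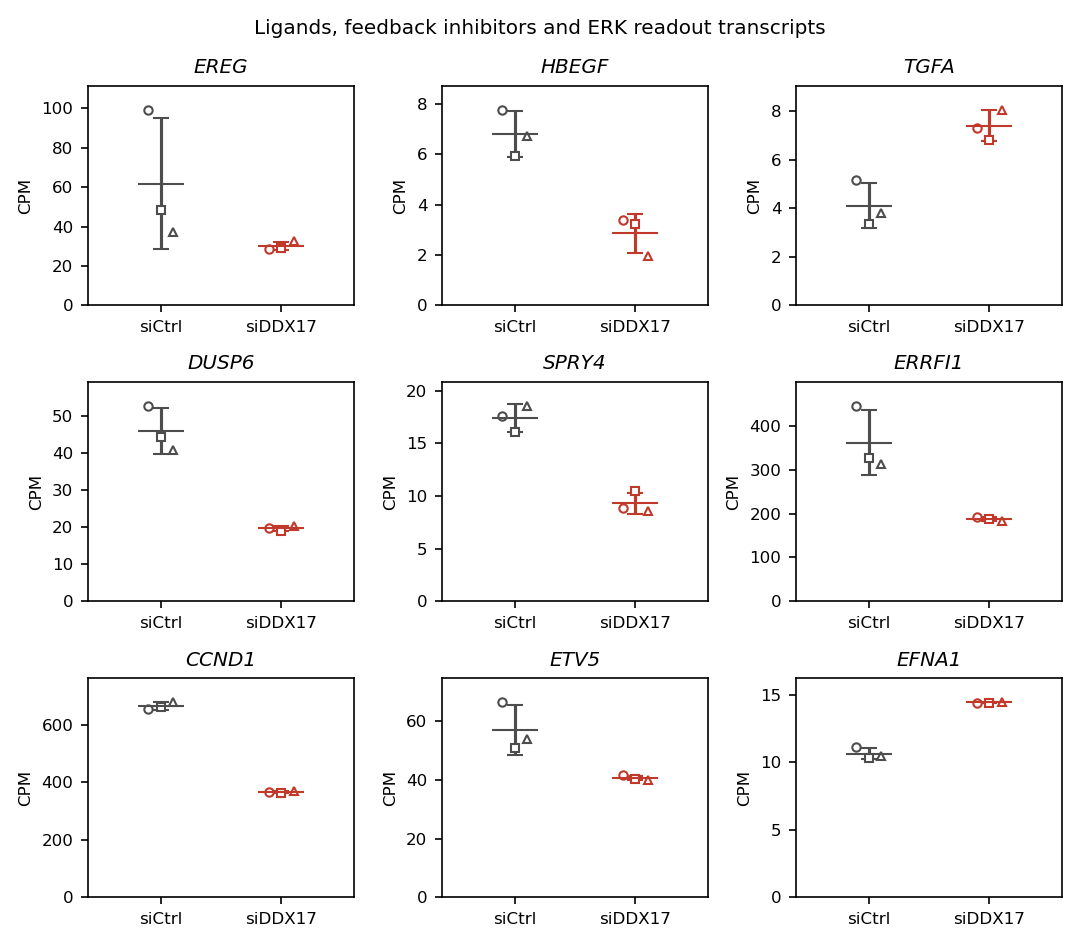
CPM by library for 3 ligands of EGFR (EREG, HBEGF, TGFA), transcripts of the inhibitor and ERK readout lists (DUSP6, SPRY4, ERRFI1, CCND1, ETV5) and EFNA1, a ligand of EPHA2, in siCtrl (grey) and siDDX17 (red), with the replicate symbols, means and SDs (n = 3) of the plot of receptor CPM. EREG in siCtrl 1 lies at 99.4 CPM, away from 48.6 and 37.3 in the other siCtrl libraries, and TGFA and EFNA1 are higher in siDDX17.

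The receptors share little sequence that could mix their reads. Of the 50-base stretches in the canonical transcript of each receptor, between 0% and 0.257% also occurred in the transcript of another gene, with the highest share for EPHA2, which shared 10 stretches with EPHB2. The antisense genes EGFR-AS1, with 0 to 2 reads per library, and EPHA2-AS1, with 1 to 8, were low in every library. Other overlapping genes were not low. On the strand opposite ERBB2, MIEN1 had 2675 to 3373 reads per library and PGAP3 had 406 to 548. With 3 libraries in each group, an exact permutation test of a single gene cannot go below a two-sided p of 0.1, so the p-values above rest on the spread that edgeR shares across genes.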

How the data were processed

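Poly(A) RNA of A549 cells was sequenced from stranded libraries, 3 for each group. Per the labels and the methods, the authors aligned trimmed reads to GRCh38 using TopHat2, retained those with a unique position, and deposited raw counts of reads per gene (29476 genes). They also deposited FPKM values, normalized to gene length and library size (29242 genes). The counting program, annotation version and use of strand are not given in the sources used here, so overlapping genes are uncertain. The deposited tables hold 0 columns that could not be assigned to a sample.

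The counts were scaled with TMM, filtered with filterByExpr and tested with glmQLFit and glmQLFTest of edgeR 4.0.16 in R 4.3.3, with Benjamini-Hochberg adjustment over 15615 genes and a threshold of 0.05. CPM are TMM-scaled, and 95% intervals use the standard error of the fit. FPKM served for levels between genes and, as log2(FPKM + 1) or log2(FPKM + 0.1), for limma 3.58.1. Low-count filters remove genes such as RET, and scaling decides the sign of small differences, so both were varied, along with DESeq2 1.42.0, the exact test of edgeR, a replicate block and fits that left out 1 library each. The scripts were tested on simulated counts.

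The receptors and gene lists were chosen with earlier results of these data known. All 10 receptors are named, and from each further list at most the 3 largest rises and 3 largest falls where the average was 3 log2 CPM or more. Some of the genes this rule names are not reported here. Locations are from GENCODE release 44, and upstream sequences from RefSeq (GRCh38.p14). Figures were drawn with matplotlib 3.10.9 in Python 3.11.15. Splicing and protein data were not analysed here.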

Additional observations from a re-analysis of the deposited data

How the results depend on the processing

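The 7 receptor calls kept their direction and their side of the threshold under every alternative, and INSR did not pass the test in any. ERBB2 passed it under library size only (log2 fold change 0.20), limma on log2(FPKM + 1) (0.18) and limma on log2(FPKM + 0.1) (0.20), settings in which the median of all genes was 0.13, 0.07 and 0.12. The number of receptors above 2-fold was 0 throughout. Genes called lower among ERBB ligands numbered 5 instead of 3 without the low-count filter and 1 under either limma fit. Those of the PI3K-AKT list numbered 4 instead of 7 under library size only and either limma fit. Those of the sorting list numbered 4 instead of 10 under library size only, 6 under upper quartile scaling, 4 under limma on log2(FPKM + 1) and 3 on log2(FPKM + 0.1). The level order of 2 receptors in siCtrl, FGFR1 and DDR1, changed with CPM per kb of exons. In siDDX17, FGFR1 lay below both MET and DDR1 per kb of exons, whereas by FPKM it was listed above both. With each library left out in turn, ERBB ligands called lower ranged from 3 to 5, other ligands called higher from 1 to 3, PI3K-AKT genes called higher from 2 to 5, sorting genes called lower from 4 to 10 and ERK readout genes called higher from 0 to 1. AREG passed the test without the low-count filter (-0.41) and without siCtrl 3 (-0.63). Limma on log2(FPKM + 1) moved 26 of 62 single-gene values by over 1.5 times, each keeping its sign. That scale understates the change of low genes, but not all of these values were smaller or from low genes. ERBB2 (0.18 against 0.08) and MAPKAP1 (0.31 against 0.20) were larger, and MET, a well-expressed gene, was at -0.28 against -0.42. No result reversed. The causes were not tested.

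Replicates of the same number in both groups did not deviate together (correlations of 0.00698, 0.0407 and -0.0564), so the numbers were not taken to pair the libraries. With the replicate number as a block, genes called higher among the other ligands numbered 1 instead of 2, EGFR was at 0.27, EPHA2 at -0.77 and the 5 and 2 receptor calls were the same in number.

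Depth limits RET, at 3 reads or fewer per library, and INSR and ERBB3, at 649 and 858 reads in all in siCtrl. Intervals cover the spread between 3 cultures for each group and 1 siRNA.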
